A study of Rattus norvegicus with 36 samples.

Results

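The mRNAs of 4 enzymes that silence genes through chromatin were followed across 9 rats: the DNA methyltransferases Dnmt1, Dnmt3a and Dnmt3b, and the histone deacetylase Hdac2. They were taken by identifier from the 32402 genes listed in the count files (ENSRNOG00000039859 for Dnmt1, ENSRNOG00000026649 for Dnmt3a, ENSRNOG00000010625 for Dnmt3b and ENSRNOG00000000604 for Hdac2), without use of any measured value. All 4 were found, and all 4 were among the 15555 genes that passed the filter on low counts.

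DNA methyltransferases place a methyl group on cytosine, mostly where a guanine follows it, and methylated promoters are often silent. Dnmt1 copies an existing pattern onto the new strand after DNA replication and is also present in neurons that no longer divide, whereas Dnmt3a and Dnmt3b set new marks. Hdac2 is a class I deacetylase that removes acetyl groups from histone tails within corepressor complexes, a step that packs chromatin more tightly, and in the nucleus accumbens both kinds of enzyme have been studied for their part in lasting responses to cocaine.

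The tissue was the nucleus accumbens, a reward region of the basal forebrain with dopamine input from the midbrain, taken from Sprague-Dawley rats aged 8 weeks. In conditioned place preference, an animal learns to link a compartment with a drug. Saline rats (n = 3) had 4 injections of physiological serum, 15 days of withdrawal and a last serum injection. CPPE rats (n = 3, also called dependent in the labels) had 4 daily cocaine injections, 15 days of withdrawal and a challenge of 5 mg/kg cocaine, and expressed the preference. The nCPPE rats (n = 3, also called non dependent) had the same cocaine treatment and did not express it. All rats were tested for preference for 18 min straight after the last injection, and the series text gives 12 days of extinction before it. The comparisons address which transcripts differ between cocaine-treated rats with and without the preference, and which differ with cocaine itself. How a preference was scored as expressed, and whether the rats were male or female, is not given in the labels, and the extraction protocol speaks of caudate putamen beside nucleus accumbens.

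Each rat had 27724289 to 39067715 counts, summed over 4 technical replicates. The library labelled Saline 2 stood apart from all others: of 15555 tested genes, 3027 were there less than 0.5 times and 1347 more than 2 times the geometric mean of the remaining 8 rats. Results that use it are therefore given with and without it. Identifiers other than the 4 could not be paired with gene names, so cell type markers could not be read, and neither the tissue label nor the make-up of Saline 2 was checked against them.

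Of the 6 pairs among the 4 mRNAs, Dnmt1 and Dnmt3a were the pair whose ratio in Saline 2 was farthest from that of the other rats, so the sequence around their transcription start is shown first, from RefSeq on assembly GRCr8, 250 bases before to 50 bases after the start. The Dnmt1 window is chr8:27762792-27763091 on the minus strand, and the Dnmt3a window is chr6:32598352-32598651 on the plus strand. Both windows, and that of Hdac2, belong to a start inside the span of the gene, by 564 bases for Dnmt1, 91286 for Dnmt3a and 1312 for Hdac2. These genes have 2, 12 and 3 RefSeq transcripts, and the counts do not tell their starts apart. Capitals mark matches, on either strand, to 5 motifs chosen with the windows in view: the GC box GGGCGG, the E-box CACGTG, the cyclic AMP response element TGACGTCA, the NRF1 motif GCGCATGCG and the E2F motif TTTCGCGC.
Dnmt1: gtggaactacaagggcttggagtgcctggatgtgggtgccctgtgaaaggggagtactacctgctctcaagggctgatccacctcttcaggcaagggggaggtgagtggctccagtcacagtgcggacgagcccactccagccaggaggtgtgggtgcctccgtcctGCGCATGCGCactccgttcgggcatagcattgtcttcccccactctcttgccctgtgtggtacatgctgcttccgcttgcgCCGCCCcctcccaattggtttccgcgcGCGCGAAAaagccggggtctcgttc
Dnmt3a: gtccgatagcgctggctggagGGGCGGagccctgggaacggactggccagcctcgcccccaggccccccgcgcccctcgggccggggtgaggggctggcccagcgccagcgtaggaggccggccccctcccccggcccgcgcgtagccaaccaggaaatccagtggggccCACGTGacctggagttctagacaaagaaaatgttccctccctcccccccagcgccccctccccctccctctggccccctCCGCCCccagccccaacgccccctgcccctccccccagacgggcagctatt

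Both windows held a GC box across the start, a motif found in 33.1% of the 33469 promoter windows of this length. The Dnmt1 window also held the NRF1 motif on both strands, in matches that overlap by all but a base, a motif present in 1.52% of windows, and the E2F motif, present in 0.326%. The Dnmt3a window held a second GC box and the E-box, present in 6.42% of windows. Neither held the cyclic AMP response element, present in 1.83%. The number of CpG dinucleotides, the sites these enzymes methylate, was 17 in the Dnmt1 window and 21 in the Dnmt3a window. The median over all windows was 7, and 29.0% of windows had at least 17 and 22.6% at least 21. The Hdac2 window (chr20:42102877-42103176, plus strand) held 33 CpG dinucleotides, a number that 7.53% of windows reach, and a GC box. A match is a description of the letters and no evidence of binding. Methylation itself was not measured in these samples.

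Dnmt1, the maintenance methyltransferase, was at 43.1, 58.8 and 44.2 CPM (counts relative to the scaled size of the library) in Saline rats 1, 2 and 3. It was at 46.8, 50.8 and 48.8 CPM in the CPPE rats and at 47.2, 40.6 and 45.2 CPM in the nCPPE rats. The highest value was that of Saline 2, while the other Saline rats lay below all CPPE rats and inside the range of the nCPPE rats. The mean of the CPPE rats was 48.8 ± 2.00 CPM, that of the nCPPE rats 44.3 ± 3.38 CPM and that of the Saline rats 48.7 ± 8.81 CPM (SD, n = 3 each). Without Saline 2 the order was CPPE, nCPPE, then Saline at 43.6 ± 0.795 CPM (SD, n = 2), and the last pair differed by less than the nCPPE spread.

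Dnmt3a, the main de novo methyltransferase of the adult brain, was at 67.7, 11.7 and 71.6 CPM in Saline rats 1, 2 and 3. The CPPE rats had 62.3, 66.9 and 68.1 CPM and the nCPPE rats 67.8, 55.5 and 65.2 CPM. Saline 2 was thus far below every other rat, and the other Saline rats were near or above the highest cocaine rats. The Saline mean of 50.3 ± 33.5 CPM (SD, n = 3) became 69.6 ± 2.77 CPM without Saline 2 (SD, n = 2). CPPE rats averaged 65.8 ± 3.05 CPM and nCPPE rats 62.8 ± 6.50 CPM (SD, n = 3 each), and these means lay within the spread of the nCPPE rats. So Saline had the lowest group mean with Saline 2 and the highest without it.

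Dnmt3b, the other de novo enzyme, is most active in early development. It had 12 to 66 counts per rat. Saline rats 1, 2 and 3 had 1.63, 0.430 and 2.02 CPM, the CPPE rats 1.32, 1.57 and 1.5 CPM and the nCPPE rats 1.82, 1.25 and 2.10 CPM. Saline 2, with 12 counts, was the lowest, and its exact Poisson 95% interval of 0.222 to 0.751 CPM lay under the values of all other rats. The CPPE mean was 1.46 ± 0.130 CPM, the nCPPE mean 1.72 ± 0.436 CPM and the Saline mean 1.36 ± 0.827 CPM (SD, n = 3 each), and without Saline 2 the last was 1.82 ± 0.276 CPM (SD, n = 2). In the 8 rats without Saline 2, counting error alone gives each value a coefficient of variation of 12.3% to 16.0%, and these rats varied by 18.7%. The CPPE mean lay within the spread of the nCPPE rats, and so did the Saline mean without Saline 2.

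Hdac2 was at 86.2, 107.0 and 82.6 CPM in Saline rats 1, 2 and 3, at 84.9, 92.6 and 83.7 CPM in the CPPE rats and at 89.6, 92.0 and 90.5 CPM in the nCPPE rats. Saline 2 was again the highest rat, and the nCPPE rats lay close together, above Saline rats 1 and 3. The nCPPE mean was 90.7 ± 1.22 CPM, the CPPE mean 87.1 ± 4.83 CPM and the Saline mean 91.9 ± 13.2 CPM (SD, n = 3 each). Without Saline 2 the Saline mean was 84.4 ± 2.61 CPM (SD, n = 2), and Saline and CPPE rats overlapped. Across the 8 rats other than Saline 2, Hdac2 varied by 4.44% (coefficient of variation), Dnmt1 by 7.10% and Dnmt3a by 7.43%.

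**Figure D1:**
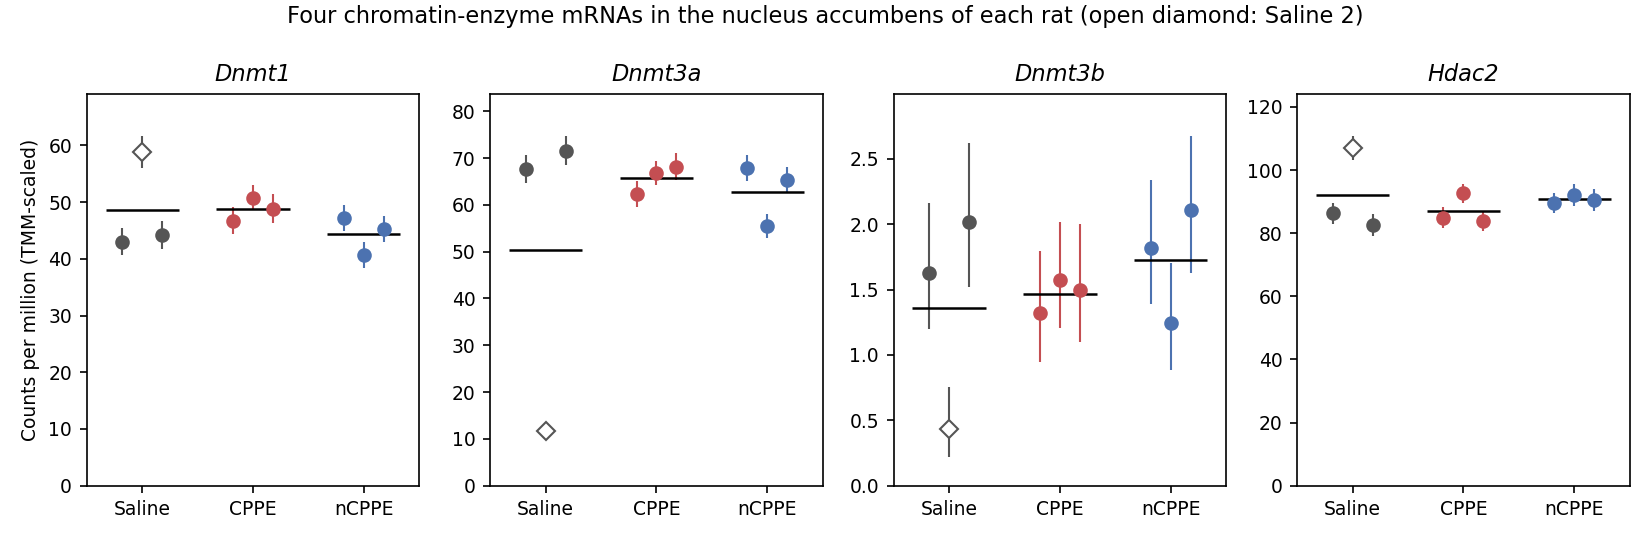
CPM of each mRNA (y axis from 0, a scale of its own in each panel) in each rat of the 3 groups, with exact Poisson 95% counting intervals as vertical lines and group means as horizontal lines. Saline 2 (open diamond) is the highest rat for Dnmt1 (58.8 CPM) and Hdac2 (107.0 CPM) and the lowest for Dnmt3a (11.7 CPM) and Dnmt3b (0.430 CPM).

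The 4 mRNAs went 2 ways in Saline 2. Dnmt3a was 5.58-fold lower than the geometric mean of the other 8 rats, and 504 of the 15555 tested genes (3.24%) were as far below or farther. Dnmt3b was 3.42-fold lower, a distance reached by 8.15% of tested genes. The folds come from log2 CPM with a prior count of 2, which makes the fold of a low count, as for Dnmt3b, smaller. Dnmt1 was 1.29-fold and Hdac2 1.22-fold higher, sizes that 34.6% and 37.9% of tested genes reached. Over 2-fold lower were 2 of the 4 mRNAs, beside 19.5% of tested genes, and over 2-fold higher were 0 of 4, beside 8.66%. All 4 were outside the range of the other 8 rats, as were 78.0% of tested genes. So the 2 de novo enzymes were on the low side of this library, while Dnmt1 and Hdac2 were on the high side at an ordinary distance. In bulk tissue, fewer cells of a type and less RNA per cell cannot be told apart, and this is a single animal, so the differences have no replicate check.

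**Figure D2:**
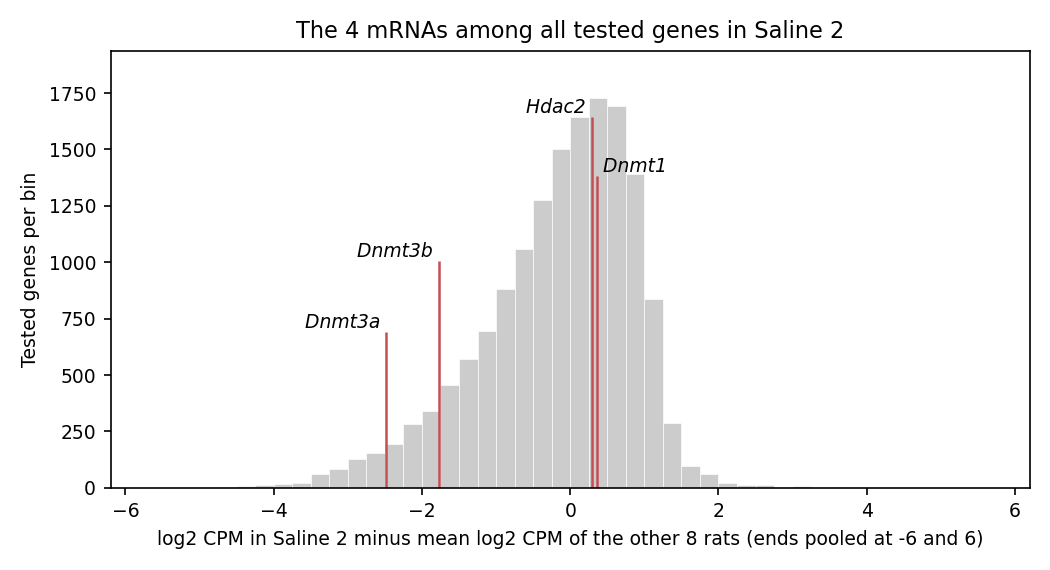
Histogram of the difference between log2 CPM in Saline 2 and the mean log2 CPM of the other 8 rats (x axis) over the 15555 tested genes (y axis, genes per bin), with the 4 mRNAs as red lines. Dnmt3a (-2.48) and Dnmt3b (-1.77) sit in the lower tail, and Dnmt1 (0.36) and Hdac2 (0.29) near the peak.

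The low Dnmt3a count of Saline 2 was present in each of its technical replicates, with 86, 81, 72 and 87 counts, where the technical replicates of Saline 1 had 476, 543, 467 and 470. Dnmt3b had 5, 1, 2 and 4 counts in those of Saline 2. Technical replicates come from the same rat, so they are no check on the sample itself. A chi-square test of each mRNA over the 4 technical replicates of each rat gave p below 0.05 in 2 of 36 tests, with a lowest p of 0.00347 for Hdac2 in Saline 3 (566, 605, 507 and 615 counts). Summed over the 9 rats, the chi-square per degree of freedom was 1.49 for Hdac2 (p = 0.0495) and 0.608 to 1.10 for the methyltransferases (p = 0.327 to 0.945).

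Between CPPE and nCPPE rats, the comparison at equal cocaine exposure, no transcript of the 4 passed the test. In edgeR's quasi-likelihood test over all 9 rats 0 of 4 had an adjusted p below 0.05, beside 0 of 15555 genes (0.0%), and 0 of 4 had an unadjusted p below 0.05, beside 84 genes (0.54%). Dnmt1 was 0.14 ± 0.15 higher on the log2 scale in CPPE rats (SE, adjusted p = 1.0), and 2 of 3 CPPE rats were above every nCPPE rat. Dnmt3a differed by 0.066 ± 0.52, Dnmt3b by -0.23 ± 0.47 and Hdac2 by -0.059 ± 0.13 (SE, adjusted p = 1.0 each). Groups overlapped for all 4, whereas 8.49% of tested genes did not overlap.

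The intervals say how large a difference these rats could hide. For Dnmt1 the 95% interval of CPPE over nCPPE ran from 0.875-fold to 1.38-fold, and for Hdac2 from 0.788-fold to 1.17-fold, both inside 1.5-fold either way, as for 42.2% of tested genes. For Dnmt3a it ran from 0.465-fold to 2.35-fold and for Dnmt3b from 0.407-fold to 1.78-fold. The width for Dnmt3a came with Saline 2, which enters through the shared spread: the biological coefficient of variation of Dnmt3a was 43.9% over all rats and 7.72% without Saline 2. Over all tested genes the common value was 26.2% with all rats and 11.8% without Saline 2. In every comparison over all rats, an edgeR test not passed is thus weak evidence of no difference. Without it the same interval for Dnmt3a was 0.922-fold to 1.19-fold, around a log2 difference of 0.066 ± 0.081 (SE). Dnmt1 then differed by 0.14 ± 0.071 (edgeR, unadjusted p = 0.0816, adjusted p = 0.971), with an interval of 0.985-fold to 1.23-fold. In that fit edgeR called 0 of 4 and 0 of 15750 genes, and 0 of 4 had an unadjusted p below 0.05, beside 556 genes (3.53%).

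Against Saline, the direction of the differences turned on Saline 2, except for Dnmt1 in CPPE rats, which was near 0 with all rats and above 0 without Saline 2. With all rats, CPPE differed from Saline in Dnmt3a by 0.39 ± 0.52 on the log2 scale (SE) and nCPPE by 0.32 ± 0.52. Without Saline 2 these values were -0.082 ± 0.091 and -0.15 ± 0.091. For Dnmt3b they went from 0.11 ± 0.48 and 0.34 ± 0.47 to -0.31 ± 0.27 and -0.079 ± 0.27. Hdac2 went the other way, from -0.078 ± 0.13 and -0.020 ± 0.13 to 0.046 ± 0.067 and 0.10 ± 0.067. Dnmt1 went from 0.0029 ± 0.15 and -0.13 ± 0.15 to 0.16 ± 0.079 and 0.025 ± 0.079. Both comparisons share their Saline rats, so the values for CPPE and nCPPE are not independent of each other.

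No transcript of the 4 passed the edgeR test against Saline in either setting. Over all rats, adjusted p-values were 0.882 to 0.996 for CPPE and 0.937 to 0.977 for nCPPE rats. In both comparisons edgeR called 0 of 4 and 0 of 15555 genes (0.0%), and 0 of 4 had an unadjusted p below 0.05, beside 139 (0.894%) and 179 genes (1.15%). Without Saline 2 it again called 0 of 4 and 0 of 15750 genes, and 0 of 4 had an unadjusted p below 0.05, beside 929 (5.9%) and 964 genes (6.12%). The smallest was that of Dnmt1 in CPPE rats (edgeR, unadjusted p = 0.0702, adjusted p = 0.825).

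Without Saline 2 the remaining 2 Saline rats lay wholly apart from the 3 CPPE rats in Dnmt1 (CPPE higher) and Dnmt3b (CPPE lower), as they did for 25.3% of tested genes. They lay apart from the nCPPE rats in Hdac2 alone (nCPPE higher), beside 24.8% of tested genes. Read against these shares, the 2 and 1 of 4 give no result about the transcripts, and no edgeR test called them. With Saline 2 included, all 4 mRNAs overlapped in both comparisons, beside 5.72% and 4.02% of tested genes that did not. All 6 cocaine rats together overlapped Saline for all 4, with Saline 2 (1.03% of tested genes did not) and without it (11.4%).

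Taking both cocaine groups as 6 rats against Saline, Dnmt3a differed by 0.35 ± 0.45 on the log2 scale (SE) with all rats and by -0.11 ± 0.081 without Saline 2. Dnmt3b differed by 0.23 ± 0.41 and -0.19 ± 0.24, Dnmt1 by -0.066 ± 0.13 and 0.094 ± 0.071, and Hdac2 by -0.049 ± 0.11 and 0.075 ± 0.060. In edgeR 0 of 4 were called in either setting, beside 0 of 15555 (0.0%) and 0 of 15750 genes. With all rats 0 of 4 had an unadjusted p below 0.05, beside 193 genes (1.24%), and without Saline 2 again 0 of 4, beside 1055 genes (6.7%). Adjusted p-values in edgeR were 0.833 to 0.880 with all rats and 0.811 to 0.880 without Saline 2. Without Saline 2 the 95% intervals of cocaine over Saline excluded a difference of 1.5-fold for Dnmt1 (0.955-fold to 1.19-fold), Dnmt3a (0.813-fold to 1.05-fold) and Hdac2 (0.959-fold to 1.16-fold), as for 71.0% of tested genes. For Dnmt3b the interval was 0.600-fold to 1.27-fold, and its low count limits it. With 2 Saline rats left, the spread behind these intervals comes largely from the cocaine rats.

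**Figure D3:**
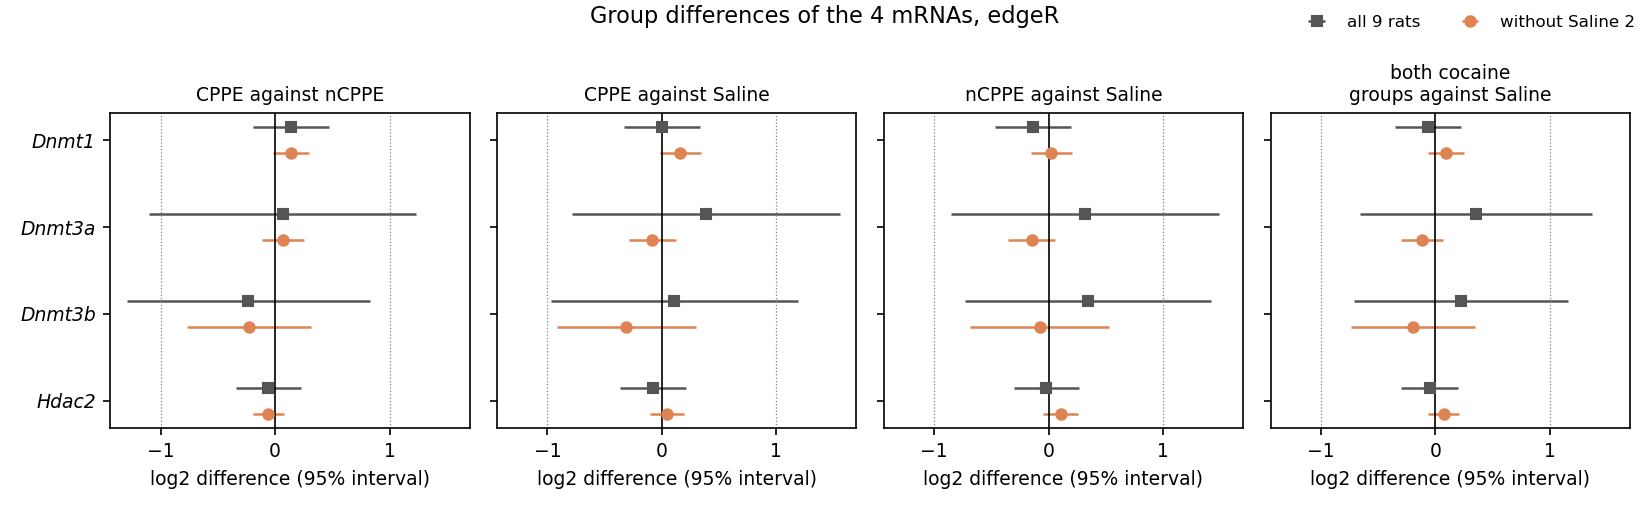
Log2 differences (x axis) of the 4 mRNAs (y axis) in the 4 comparisons, with edgeR 95% intervals, over all 9 rats (grey squares) and without Saline 2 (orange circles); dotted lines mark 2-fold. The Dnmt3a interval for CPPE against nCPPE narrows from -1.10 to 1.24 with all rats to -0.12 to 0.25 without Saline 2, and against Saline its estimate moves across 0.

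Asked whether any of the 3 groups differed, no transcript passed either. edgeR's F-test called 0 of 4 and 0 of 15555 genes (0.0%), with 0 of 4 at an unadjusted p below 0.05 beside 89 genes (0.572%), and without Saline 2 again 0 of 4 beside 749 of 15750 genes (4.76%). An exact permutation test of the F statistic of log2 CPM over the 280 ways to part 9 rats into 3 groups gave p = 0.571 for Dnmt1, 0.936 for Dnmt3a, 0.804 for Dnmt3b and 0.85 for Hdac2, where the smallest possible p is 0.00357. Without Saline 2 the exact permutation p was 0.161, 0.389, 0.475 and 0.239.

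The ratio of 2 transcripts within a rat does not depend on how libraries are scaled, and here it showed the balance between maintenance and de novo methyltransferase mRNA. Counts of Dnmt1 per count of Dnmt3a were 0.636, 5.04 and 0.617 in Saline rats 1, 2 and 3. They were 0.750, 0.759 and 0.717 in the CPPE rats and 0.696, 0.732 and 0.693 in the nCPPE rats. Saline 2 had 7.21 times the ratio of the other rats, while Saline rats 1 and 3 had the lowest ratios of all. CPPE rats averaged 0.742 ± 0.0224 and nCPPE rats 0.707 ± 0.0216 (SD, n = 3 each), and these groups overlapped. Because counts are not divided by transcript length, a ratio shows change between rats and not which enzyme's mRNA was more abundant.

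Over all 9 rats the exact permutation test of F on log2 ratios (280 splits) gave p = 0.971 for this ratio. Saline 2, at 5.04, was in some group in every split and widened its spread. So this p does not show that the groups were alike. In the 8 rats without Saline 2 the exact permutation p was 0.00714, against a smallest possible p of 0.00357, with both Saline rats below all 6 cocaine rats. The adjusted p was 0.0429 over the 6 ratios in those 8 rats and 0.0857 over the 12 exact permutation tests run with and without Saline 2. Counting error alone gives each ratio in these 8 rats a coefficient of variation of 2.97% to 3.69%. The result rests on leaving out a rat whose ratio lay on the other side, and on 2 Saline rats. With another tested gene for Dnmt1, the ratio to Dnmt3a put all cocaine rats above Saline rats 1 and 3 for 15.3% of 15554 genes. When any other gene took the place of Dnmt3a the share was 10.4%. Both shares are for this direction only, whereas the permutation test takes either direction.

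**Figure D4:**
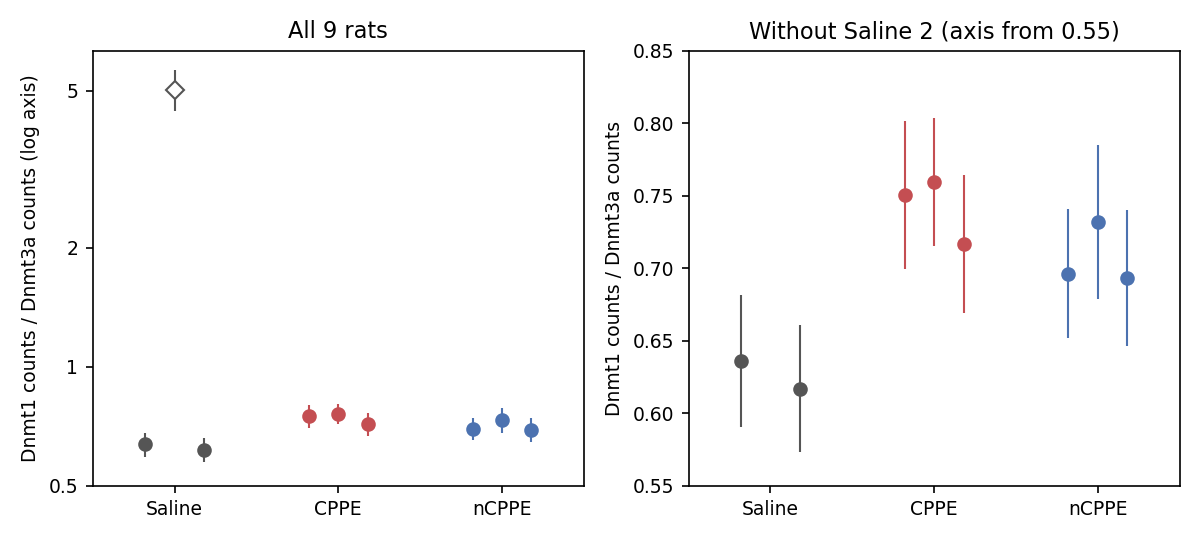
Counts of Dnmt1 per count of Dnmt3a in each rat by group, with 95% counting intervals, over all 9 rats (left, log axis) and without Saline 2 (right, linear axis that starts at 0.55). Saline 2 (open diamond) is at 5.04, and Saline rats 1 and 3, at 0.636 and 0.617, lie below the 6 cocaine rats at 0.693 to 0.759.

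Dnmt1 per Hdac2 was the only ratio with Saline 2 inside the range of the other 8 rats, at 0.55 beside 0.441 to 0.583. It averaged 0.561 ± 0.0194 in CPPE, 0.489 ± 0.0436 in nCPPE and 0.528 ± 0.0260 in Saline rats (SD, n = 3 each). All CPPE rats (0.548 to 0.583) were above all nCPPE rats (0.441 to 0.527), and the Saline rats overlapped both. With another tested gene in the place of Dnmt1, the ratio to Hdac2 put all CPPE above all nCPPE rats for 9.75% of 15554 genes. With any other gene in the place of Hdac2 the share was 16.3%, again in this direction only. The exact permutation p for a group difference over all 9 rats was 0.05, and 0.3 after adjustment over the 6 ratios, so it did not pass. Without Saline 2 the Saline mean was 0.517 ± 0.0254 (SD, n = 2) and the exact permutation p was 0.118 (adjusted p = 0.283). Dnmt3a per Hdac2 was 0.109 in Saline 2 and 0.603 to 0.867 elsewhere (exact permutation p = 0.943 over all 9 rats and 0.211 without Saline 2). For Dnmt1 per Dnmt3b the exact permutation p was 0.829 over all 9 rats and 0.154 without Saline 2. For Dnmt3b per Hdac2 it was 0.904 and 0.443. Dnmt3a per Dnmt3b was 27.2 in Saline 2 and 31.0 to 47.2 elsewhere (exact permutation p = 0.182 over all 9 rats and 0.236 without Saline 2). So the de novo enzymes stayed closer to each other in Saline 2 than either did to Dnmt1 or Hdac2. Low Dnmt3b counts give that 27.2 a counting coefficient of variation of 29.4%, so its place below the other rats is uncertain.

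Across the 8 rats without Saline 2 the transcripts did not vary together beyond what the test allows. The highest Pearson's r of log2 CPM was that of Dnmt3a with Dnmt3b (r = 0.709, exact permutation p = 0.0364, adjusted p = 0.218 over 6 pairs; Spearman's rho = 0.5, exact permutation p = 0.216, adjusted p = 0.649). Without the 2 rats farthest from the median of Dnmt3a, r was 0.07. Leaving these rats out also narrows the range of Dnmt3a, which by itself lowers r. So this value does not show that the correlation rested on them. Dnmt3a and Hdac2 had a negative r that did not pass (r = -0.511, exact permutation p = 0.195, adjusted p = 0.420; rho = -0.643, exact permutation p = 0.0962, adjusted p = 0.577), with r = -0.779 without the 2 farthest rats. The other 4 pairs had r from -0.111 to 0.498. In nCPPE 2 the 3 methyltransferases had their lowest values among these 8 rats, at 40.6, 55.5 and 1.25 CPM for Dnmt1, Dnmt3a and Dnmt3b. Hdac2 was there at 92.0 CPM, near its highest. For Dnmt3b the rank is within counting error, with 39 counts in nCPPE 2 beside 41 in CPPE 1. The share of all tested genes at their lowest in nCPPE 2 was not computed, so this gives no result about the transcripts.

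The genes whose pattern over these 8 rats was most like each transcript were sought among 13758 other genes with an average of 1 CPM or more, and the closest 2 per transcript had r from 0.955 to 0.991, as a description. The files do not give their names. The genes closest to Dnmt3a, ENSRNOG00000016963 (r = 0.991) and ENSRNOG00000014285 (r = 0.991), were also lower in Saline 2, by 1.72-fold and 4.68-fold. Those closest to Hdac2, ENSRNOG00000020590 (r = 0.984) and ENSRNOG00000007979 (r = 0.955), were higher in Saline 2, at 1.88 and 1.16 times the mean of the other rats. Those closest to Dnmt1, ENSRNOG00000023712 (r = 0.971) and ENSRNOG00000023007 (r = 0.966), were lower there by 1.35-fold and 1.36-fold, although Dnmt1 was higher. Those closest to Dnmt3b, ENSRNOG00000003890 (r = 0.982) and ENSRNOG00000018599 (r = 0.979), were at 0.925 and 1.17 times the other rats, whereas Dnmt3b was 3.42-fold lower. The genes closest to Dnmt3a and Hdac2 thus shared the direction of these transcripts in Saline 2. So did 1 of the 2 closest to Dnmt3b, and neither of those closest to Dnmt1 did. Many tested genes were higher and many lower in Saline 2, so some would share a direction without any likeness. The share among all searched genes was not computed, so these directions do not show that likeness over 8 rats carried over. No test is given, since the genes were picked for that likeness.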

How the data were processed

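Polyadenylated RNA from 9 rats was sequenced in 4 technical replicates each (36 samples, strand-specific TruSeq Stranded mRNA kit, 300 ng of total RNA), per the labels' protocols. Whether each technical replicate was a library of its own was not settled here. Each deposited file holds whole-number read counts by Ensembl identifier, not normalized; bcl2fastq 2.18.0.12, STAR and HTSeq 0.5.3 are named in the submitters' processing notes. Genome build, annotation release and strand setting: not given in the sources used here. Reference names (RefSeq, GRCr8) held 0 Ensembl identifiers, so the symbols of the 4 genes come from the list of identifiers that defined them and could not be checked against the files. RefSeq lists 3 pseudogenes of Dnmt3a, 2 of Dnmt3b (1 overlapping the gene) and 1 of Hdac2, so reads shared with those copies make these counts uncertain. A promoter window was found for 3 of the 4 genes. Lists of other chromatin genes and cell type markers were not tested, for want of names.

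Counts were summed over technical replicates, so each rat is 1 sample. Over all genes their spread was that of counting (chi-square per degree of freedom 1.00 to 1.02 in each rat). For Hdac2 the value was 1.49 over the 9 rats, the highest of 4 unadjusted tests, with the largest part from Saline 3. In edgeR 4.0.16 (R 4.3.3), low counts were removed with filterByExpr, libraries scaled by TMM (trimmed mean of M values), and quasi-likelihood F-tests fitted with group as the only factor over all 9 rats, with Benjamini-Hochberg adjustment over all genes. Standard errors and 95% intervals come from the same fit and use the spread shared by all groups. Log2 CPM used a prior count of 2. Permutation tests were exact and two-sided. P-values for groups, ratios and correlations rest on the spread between these rats only, and edgeR shares information on it over genes. Those of the chi-square tests concern counts among the technical replicates of a rat. Alternatives were DESeq2 1.42.0, limma-voom (limma 3.58.1) with quality weights, other scaling, no filter, only the groups compared, a replicate block and each rat left out. The genes, lists and tests were chosen with earlier results of these data known. The rule for named genes took the 4 transcripts in every comparison and, for each, the 2 genes of most like pattern. Intervals on counts cover counting error only.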

Additional observations from a re-analysis of the deposited data

How the results depend on the processing

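No gene of the 4 was called under any of the 16 other settings of the group tests (lowest adjusted p 0.495). Of the 252 log2 differences recomputed, 225 kept their direction and 27 changed it. Of those 27, 11 came with Saline 2 left out and 11 with limma-voom, whose quality weight for Saline 2 was 0.0300 beside 0.742 to 2.96 for the other rats. With limma-voom the differences from Saline that changed direction were, for CPPE, -0.064 (Dnmt3a), -0.29 (Dnmt3b), 0.014 (Hdac2); for nCPPE, 0.056 (Dnmt1), -0.088 (Dnmt3a), -0.041 (Dnmt3b), 0.091 (Hdac2); for both cocaine groups, 0.10 (Dnmt1), -0.076 (Dnmt3a), -0.17 (Dnmt3b), 0.053 (Hdac2). With total counts in place of TMM, Hdac2 in nCPPE against Saline was 0.016, and r of Dnmt1 with Hdac2 was 0.10. With each rat left out in turn, the difference from Saline for CPPE ranged from -0.070 to 0.16 (Dnmt1), from -0.082 to 0.73 (Dnmt3a), from -0.31 to 0.51 (Dnmt3b), from -0.15 to 0.046 (Hdac2). With each rat left out in turn, the difference from Saline for nCPPE ranged from -0.21 to 0.025 (Dnmt1), from -0.15 to 0.66 (Dnmt3a), from -0.079 to 0.74 (Dnmt3b), from -0.092 to 0.10 (Hdac2). With each rat left out in turn, the difference from Saline for both cocaine groups ranged from -0.14 to 0.094 (Dnmt1), from -0.11 to 0.70 (Dnmt3a), from -0.19 to 0.62 (Dnmt3b), from -0.12 to 0.075 (Hdac2). Between CPPE and nCPPE it ranged from -0.016 to 0.12 (Dnmt3a). The end of each range on the other side of 0 was the value without Saline 2, except for Dnmt1 in CPPE against Saline (-0.070 without Saline 1, -0.063 without Saline 3 and -0.027 without CPPE 2) and Dnmt3a in CPPE against nCPPE (-0.016 without nCPPE 2).

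Over all genes, edgeR called 0 in each comparison under every edgeR setting, and DESeq2 called 1 gene for CPPE against nCPPE (100 at an unadjusted p below 0.05), 0 for CPPE against Saline (182), 1 for nCPPE against Saline (207) and 1 for both cocaine groups against Saline (255), none of them among the 4. limma-voom called 0 in each (640, 1154, 1221 and 1410 at an unadjusted p below 0.05). The exact permutation p of the Dnmt1 to Dnmt3a ratio ranged from 0.00714 to 0.975 over the rats left out in turn, and passed adjustment only without Saline 2. With all 9 rats, that is with Saline 2, r was -0.738 for Dnmt1 with Dnmt3a, -0.696 for Dnmt1 with Dnmt3b, 0.658 for Dnmt1 with Hdac2, -0.806 for Dnmt3b with Hdac2, 0.951 for Dnmt3a with Dnmt3b and -0.875 for Dnmt3a with Hdac2. In exact permutation tests the last 2 then passed (adjusted p = 0.0123 and 0.0319), and Dnmt3b with Hdac2 did not (p = 0.0435, adjusted p = 0.0853). For the 2 that passed, Spearman's rho was 0.65 and -0.75. Without the 2 rats farthest from the median of Dnmt3a, their r was 0.525 and -0.292. Rat numbers are not said to pair animals: deviations of same-numbered rats correlated at over 0.1 in 2 of 9 pairs (-0.447 to 0.257). With the rat number as a replicate block edgeR called 0 genes in every comparison, and the Dnmt3a difference from Saline was 0.61 in CPPE and 0.51 in nCPPE rats. Low counts limit Dnmt3b most.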
